A study of Danio rerio with 73 samples.

Results

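Testes of 10 adult zebrafish reared at 28 °C were compared with ovaries of 9 adult zebrafish reared at the same temperature, all from libraries whose titles carry the prefix 204. The libraries were chosen by their titles, labelled tissue and treatment, and make up 19 of the 73 libraries of the series. The testis libraries are titled G0, G2, G3, G5, G7, G8, G9, G14, G15 and G17, and the ovary libraries G4, G6, G10, G11, G12, G13, G16, G19 and G20. All 19 fish are labelled as strain AB, laboratory reared and 90 days old, with treatment LT, which was read as 28 °C from the series design. Each library is labelled with 1 fish number, so the fish was the replicate.

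The series as a whole measured DNA methylation at promoter regions of 18 genes in mature gonads of fish kept at 28 °C or 36 °C during gonadal development. Whole gonads were frozen, their DNA was treated with bisulfite, and chosen regions were amplified together and sequenced, an assay called multiplex bisulfite sequencing. Titles carry a prefix, 204 or 128, that the labels do not define. With prefix 128, 13 testes and 9 ovaries were kept at 28 °C, and with prefix 204, 8 testes and 12 ovaries were kept at 36 °C.

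In vertebrates, methyl groups are added to cytosines that precede a guanine, called CpG sites, by DNA methyltransferases. Bisulfite converts unmethylated cytosine and leaves methylated cytosine, so the share of reads that still show a cytosine gives the methylation level of a site. Promoters with dense methylation are often silent, and active CpG-rich promoters usually carry little. In zebrafish, sperm DNA is known to be more heavily methylated than the DNA of eggs, and a testis holds many germ cells at late stages, while an ovary holds oocytes and a large share of somatic cells. Whole gonads mix these cells, so a change in the level within a cell type and a change in the proportions of cell types cannot be told apart.

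Sequencing depth, counted as CpG read calls per fish, ran from 1416665 to 8521577 in testes (median 4288440) and from 711295 to 9004777 in ovaries (median 4696160). After CpGs under 10 reads in a fish were dropped, 323 CpGs fell into 20 amplicons, of which a fish had a level at 9 to 20 in testes and at 17 to 20 in ovaries. Testes G2 and G7 stood apart from the other 8 testes. G2 had a level at 17 amplicons and G7 at 9, and neither had one at 3 of the amplicons. A single amplicon, on chromosome 15, took 59.7% of the calls in G2 and 46.9% in G7, but also 43.8% in testis G15 and 44.9% in ovary G13. Differences in level at amplicons and named CpGs that moved by over 1.5 times without G2 and G7 are given with and without them. As a group, the testes also stood apart from the testes with prefix 128, with levels within or near the range of the ovaries at amplicons where most prefix 128 testes lay far higher, as given after the main comparison. These libraries hold no RNA, so the labelled tissue could not be checked against marker genes.

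All coordinates are 1-based on GRCz10, and the amplicons are called by their chromosome, with a letter where a chromosome has more than 1. Gene annotation for GRCz10 was not used here, and the amplicons are given without gene names, exons or promoter positions. Of the 20 amplicons, 8 had a low level, below 5% on average over all 73 fish. These were chr1:6886521-6886862, chr3B at chr3:54352466-54352868, chr5A at chr5:23697173-23697500, chr5B at chr5:34961306-34961660, chr5D at chr5:44400346-44400733, chr7A at chr7:22538693-22539035, chr15:7060346-7060685 and chr19A at chr19:1356464-1356767. Intermediate levels, from 5% to 90% by the same average over 73 fish, were found at 9 amplicons. These were chr3A at chr3:17897376-17897597, chr5C at chr5:44344567-44344999, chr7B at chr7:34854540-34854908, chr16:54645605-54645858, chr18:39655137-39655521, chr19B at chr19:27434975-27435361, chr22:20736688-20736788, chr25:22224443-22224607 and chrUn at chrUn_KN150211v1:6205-6328. High levels, above 90% by that average, were found at 3 amplicons, chr8:29856084-29856417, chr14:23501841-23502150 and chr20:1252974-1253280. In the fish compared here, means were below 90% at chr20 (86.0% in testes, 85.5% in ovaries) and in testes at chr8 (89.4%).

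With prefix 204 at 28 °C, no difference in methylation between testis and ovary passed the test at any amplicon. Intermediate amplicons such as chr18 and chr3A, the furthest apart, differed by about 6 points between means. Without testes G2 and G7 the chr3A difference was 1.54 points, and neither fish had a level at chr18. Of the 18 amplicons with at least 5 fish in each tissue, 0 (0%) passed an exact two-sided permutation test of the mean level per fish with Benjamini-Hochberg adjustment over the 18, and 0 reached an unadjusted p below 0.05. The limma test and an exact rank-sum test also called 0 and reached an unadjusted p below 0.05 at 0. A quasi-binomial logistic model of the counts called 0 and reached it at 1. With a minimum of 30 reads the permutation test reached it at 2 of 17 amplicons, and with 100 reads at 1 of 17, with 0 called in either. The mean was higher in testes at 13 amplicons and lower at 5, with a median size of 0.639 percentage points. At 0 of the 20 amplicons (0%) did the levels of the testes and the ovaries fail to overlap.

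The amplicon on chromosome 18 had the smallest p. Levels there ran from 25.1% to 49.1% in testes (median 40.8%, n = 8) and from 23.7% to 45.1% in ovaries (median 31.8%, n = 9). Of the 8 testes, 6 lay above the ovary mean and 7 lay within the ovary range; testis G14 was the highest and testis G9 the lowest. The mean was 38.7% ± 7.75 in testes and 32.4% ± 6.13 in ovaries (SD). The difference of 6.31 points had a 95% interval from −0.928 to 13.4 and an adjusted p of 0.636 (exact permutation test, unadjusted p = 0.0817). The interval gives the shifts that the permutation test does not reject. G9 had no level at chr18 with a minimum of 30 reads, against a median of 11292.5 reads per CpG in testes. Without G9, or with that minimum, the difference was 8.25 points, and it did not pass after adjustment. All 15 CpGs of this amplicon had a higher mean in testes, but CpGs of 1 amplicon are read from the same molecules and are not independent.

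The largest difference between means was at chr3A. Levels ran from 25.7% to 59.5% in testes (median 38.9%, n = 10) and from 27.3% to 40.7% in ovaries (median 33.8%, n = 9). Testes G2 and G7 lay above every ovary, at 58.2% and 59.5%, and the other 8 testes lay between 25.7% and 41.9%. With all fish, testes averaged 39.5% ± 11.6 and ovaries 33.2% ± 4.67 (SD). The difference was 6.38 points, with an interval from −2.21 to 15.2 and an adjusted p of 0.636 by the exact permutation test. Without G2 and G7 it was 1.54 points, with an interval from −4.16 to 7.20. The level of G7 there rests on a median of 53 reads per CpG, against 3567 in the other 8 testes.

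At chr7B the testes were lower on average. Levels ran from 10.5% to 38.3% in testes (median 18.7%, n = 9) and from 15.1% to 31.3% in ovaries (median 24.0%, n = 9). The highest value belonged to testis G2, and 2 of the 9 testes lay above the ovary mean. Testes averaged 20.1% ± 7.94 and ovaries 23.6% ± 5.56 (SD), a difference of −3.54 points with an interval from −10.1 to 3.41 and an adjusted p of 0.659 (exact permutation test). Without G2, which is the fish with a level here among the 2 that stood apart, the difference was −5.82 points, with an interval from −11.0 to −0.588. That difference had an unadjusted exact p of 0.0313 and an adjusted p of 0.563, and chr7B was then the 1 amplicon of 18 with an unadjusted p below 0.05. G2 was left out after its levels were seen, and leaving out the highest testis necessarily lowers the testis mean.

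**Figure D1:**
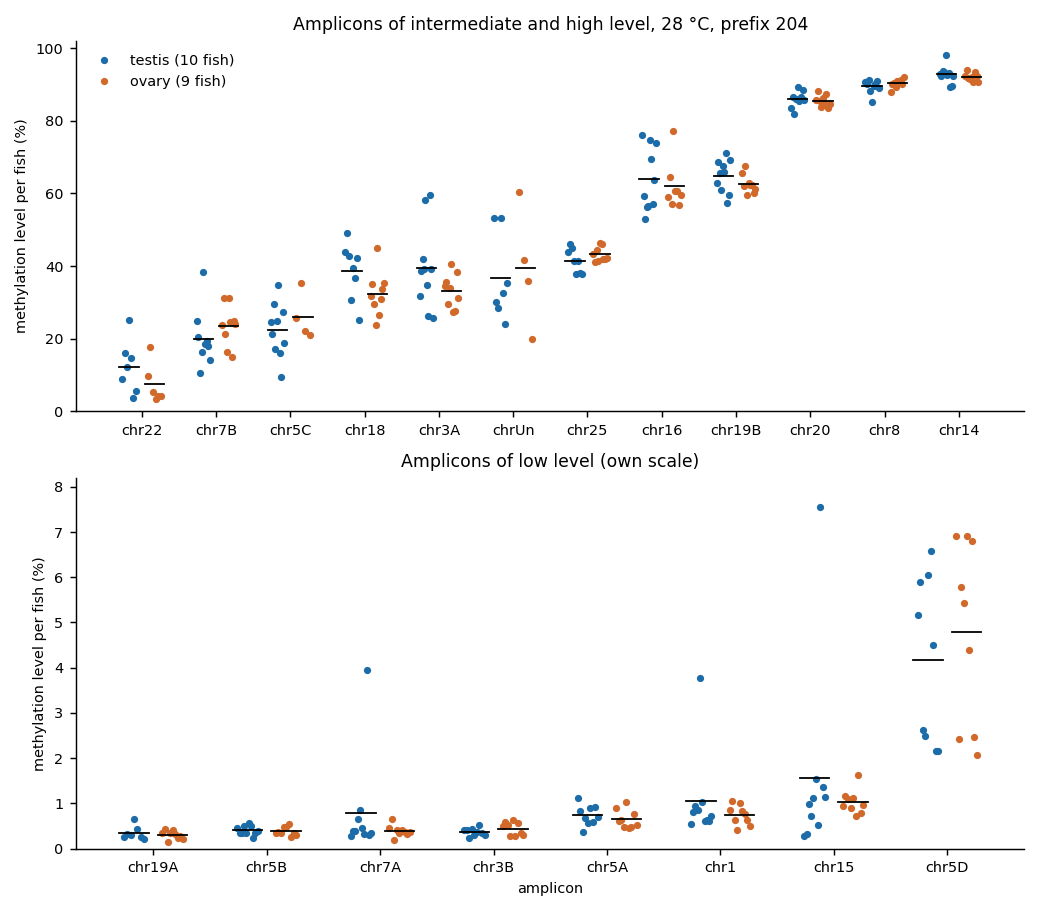
Methylation level per fish (%, vertical axis) at each amplicon, with testes left of ovaries, dots for fish and black lines for means; intermediate and high amplicons are in the upper panel and low amplicons, on their own scale, in the lower. Testes and ovaries overlap at every amplicon, and single testes lie far above the rest at chr1, chr7A and chr15.

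The remaining intermediate amplicons had differences on either side of 0. At chr16, levels ran from 53.1% to 76.0% in testes (median 61.4%, n = 10) and from 56.8% to 77.1% in ovaries (median 60.2%, n = 8), and the difference was 2.02 points with an interval from −5.97 to 9.95. At chr19B they ran from 57.5% to 71.1% in testes (median 65.8%, n = 10) and from 59.5% to 67.5% in ovaries (median 62.2%, n = 9), and the difference was 2.27 points with an interval from −1.34 to 5.87. The testes reached both the highest and the lowest value at chr19B, and at chr16 an ovary, G13, was the highest of all. The lowest value at chr19B was that of G7, which rests on a median of 82 reads per CpG. At each CpG of chr19B, G7 lay outside the range of the other 18 fish. The chr16 difference was 3.82 points without G2 and G7, with an interval from −4.60 to 12.3, and 4.18 points without ovary G13. At chr25, levels ran from 37.7% to 46.0% in testes (median 41.5%, n = 8) and from 41.2% to 46.4% in ovaries (median 42.3%, n = 9). All 8 CpGs of chr25 had a lower mean in testes, and the amplicon difference was −1.78 points, with an interval from −4.58 to 1.03. At chr22, the shallowest amplicon tested with a median of 88.5 reads per CpG in testes and 114.5 in ovaries, levels ran from 3.80% to 25.1% in testes (median 12.4%, n = 7) and from 3.55% to 17.9% in ovaries (median 4.82%, n = 6). The difference there was 4.86 points with an interval from −3.00 to 12.8. Testis G2 held the highest level at chr22, and without it the difference was 2.74 points, with an interval from −4.28 to 9.57. The lowest adjusted p of these 4 amplicons was 0.636 by the exact permutation test.

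Too few ovaries had a level at chr5C and chrUn for the rule of 5 fish per tissue. A level at chr5C was found in 10 of 10 testes and in 4 of 9 ovaries, for which a two-sided Fisher's exact test gave p = 0.0108 and an adjusted p of 0.217 over the 20 amplicons; 0 of the 20 (0%) passed. Levels at chr5C ran from 9.35% to 34.7% in testes (median 23.0%) and from 21.1% to 35.4% in ovaries (median 23.9%). With a rule of 3 fish per tissue, the difference was −3.69 points with an interval from −13.0 to 5.67 (exact permutation p = 0.398, n = 10 testes and 4 ovaries). At chrUn, with a median of 15 reads per CpG in testes and 20.5 in ovaries, it was −2.77 points with an interval from −22.8 to 16.5 (exact permutation p = 0.739, n = 7 testes and 4 ovaries). The groups overlapped at both.

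The 3 high amplicons were close in level between the tissues. At chr8, levels ran from 85.2% to 91.3% in testes (median 90.1%, n = 9) and from 87.99% to 91.9% in ovaries (median 90.4%, n = 9), a difference of −0.883 points with an interval from −2.43 to 0.584. At chr14, they ran from 89.3% to 98.1% in testes (median 92.7%, n = 10) and from 90.5% to 94.0% in ovaries (median 92.1%, n = 9), a difference of 0.656 points with an interval from −1.15 to 2.54. Testis G2 was the lowest fish at chr8 and the highest at chr14; without G2 and G7 the difference was −0.355 points at chr8 and 0.415 points at chr14. At chr20, levels ran from 81.9% to 89.4% in testes (median 85.9%, n = 9) and from 83.5% to 88.1% in ovaries (median 85.5%, n = 9), a difference of 0.465 points with an interval from −1.46 to 2.38. G2 was the highest fish at chr20 as well, and without it the difference was 0.0361 points, with an interval from −1.78 to 1.83.

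Of the 8 low amplicons, 7 stayed at about 1% or below in the median fish of either tissue. The exception was chr5D, with a median of 4.51% in testes (range 2.16 to 6.57, n = 9) and 5.43% in ovaries (range 2.07 to 6.92, n = 9). Its mean level rests largely on its last CpG, at position 44400733, which averaged 69.1% in testes and 73.8% in ovaries. The difference at chr5D was −0.621 points, with an interval from −2.56 to 1.33. At chr1, chr7A and chr15 the testis means of 1.05%, 0.793% and 1.55%, against 0.743%, 0.393% and 1.03% in ovaries, were each drawn up by a single testis. G2 stood at 3.78% at chr1, where the highest ovary had 1.04%. G7 stood at 3.94% at chr7A and 7.56% at chr15, where the highest ovaries had 0.660% and 1.62%. Without these fish the difference was 0.0204 points at chr1, −0.00133 at chr7A and −0.174 at chr15. The other 4 low amplicons, chr3B, chr5A, chr5B and chr19A, had differences between −0.0724 and 0.0854 points. Of these, chr5B moved by over 1.5 times without G2 and G7, to 0.0416 points, against 0.0138 with all fish.

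**Figure D2:**
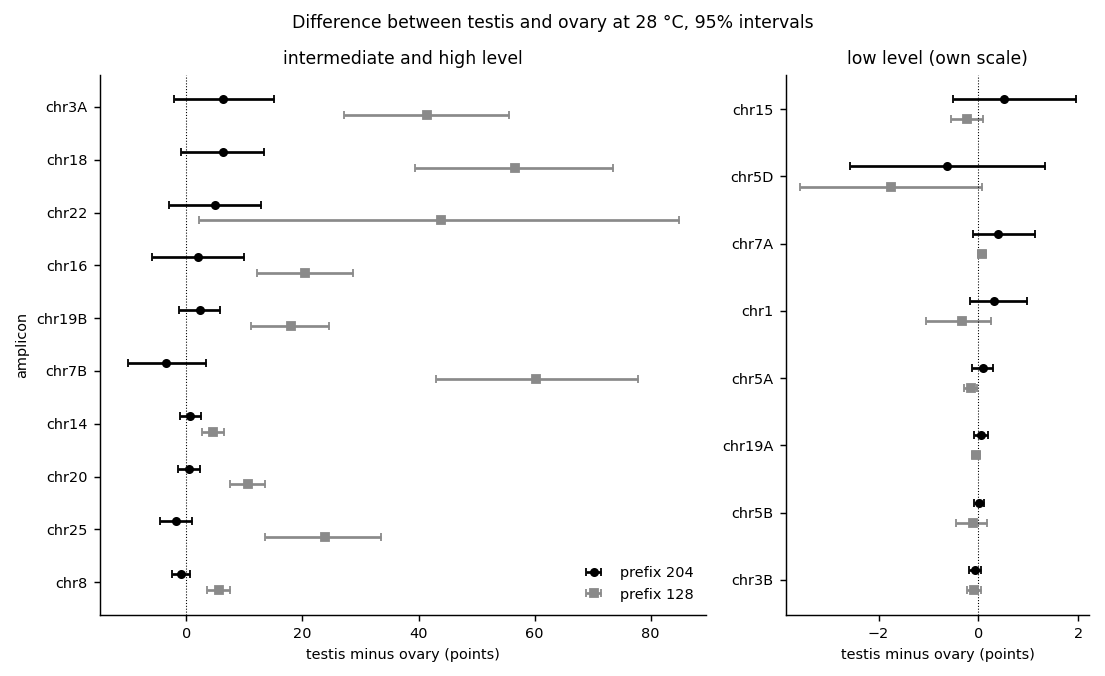
Difference in mean level between testis and ovary at 28 °C (percentage points, horizontal axis) for each of the 18 amplicons tested, with 95% intervals from the permutation test; black circles are prefix 204 and grey squares prefix 128, and the low amplicons have their own scale. Every interval of prefix 204 includes 0, and at 13 amplicons the difference of prefix 128 lies outside it.

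The intervals give the sizes of difference that these fish exclude, if the tissues differ by a shift alone. The SDs were unequal at some amplicons, with ratios (testis over ovary) of 8.99 at chr7A, 8.12 at chr15 and 4.42 at chr1. How the intervals hold there was not tested. A difference of 10 points or more in either direction was excluded at 14 of 18 amplicons (15 without G2 and G7), 5 points or more at 12, 3 points or more at 11, and 1 point or more at 5. The intermediate amplicons among the 14 were chr16, chr19B and chr25. Without G2 and G7, chr3A and chr22 joined them and chr16 left, with up to 12.3 points not excluded, against 9.95 with all fish. No amplicon left room for 20 points, and the 4 that left room for 10 were chr3A, chr7B, chr18 and chr22. The largest difference not excluded had a median of 0.634 points over the low amplicons (range 0.108 at chr5B to 2.56 at chr5D), of 10.1 points over the 7 intermediate amplicons tested (range 4.58 at chr25 to 15.2 at chr3A) and of 2.43 points over the high ones (range 2.38 to 2.54). With intervals widened to hold jointly over the 18 amplicons, 10 points was excluded at 13 and 20 points at 16. These limits hold for means of whole gonads, and a low or high level bounds from the outset how far a mean can move. Levels were not corrected for incomplete bisulfite conversion, and its part in the levels of the low amplicons was not tested.

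Single CpGs gave the same count of calls. Of 294 CpGs tested, 0 (0%) passed the exact permutation test after adjustment, and 22 (7.48%) had an unadjusted p below 0.05, 17 of them higher and 5 lower in testes. The smallest adjusted p was 0.642. The limma, quasi-binomial and exact rank-sum tests called 0, with unadjusted p below 0.05 at 14, 35 and 23 CpGs. Means were higher in testes at 168 CpGs and lower at 126, with a median difference of 0.0709 points. The interval of a CpG excluded 10 points at 239 of 294 and 20 points at 288. Most of these CpGs, 200 of 294, lie in low amplicons, where the level itself bounds the difference. The largest difference not excluded had a median of 0.797 points over those 200 CpGs and of 4.80 over the 24 of high amplicons. Over the 70 CpGs of intermediate amplicons the median was 12.7 points (range 4.05 to 38.5).

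The CpG with the largest difference was at position 27435056 of chr19B, where levels ran from 24.6% to 100% in testes (median 70.7%, n = 10) and from 34.1% to 73.2% in ovaries (median 38.4%, n = 9). Testes averaged 66.0% ± 22.4 and ovaries 46.1% ± 15.5 (SD), a difference of 19.9 points with an interval from 0.955 to 38.5 and an adjusted p of 0.642 by the exact permutation test. The value of 100% came from testis G7, with a median of 82 reads per CpG of this amplicon. Without G2 and G7 the difference was 13.6 points. The tissues overlapped widely at this CpG, since 3 testes lay at or below 46.2% and 2 ovaries lay above 70%.

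Next in size were a CpG of chr18 at position 39655202, with 40.8% ± 6.91 in testes (n = 8) and 30.7% ± 8.27 in ovaries (SD, n = 9), and a CpG of chr3A at position 17897396, with 49.5% ± 16.8 in testes (n = 10) and 39.6% ± 6.12 in ovaries (SD, n = 9). Their differences were 10.02 and 9.86 points, and their adjusted p-values by the exact permutation test were 0.642 and 0.789. At the chr3A CpG, G2 stood at 75.9% and G7 at 81.1%, the other 8 testes lay between 30.5% and 53.7%, and without G2 and G7 the difference was 2.60 points. Of the 5 CpGs with the smallest p, 1 had a level away from the floor: position 23501847 of chr14, at 93.9% in testes and 89.5% in ovaries, with a difference of 4.31 points and an interval from 1.35 to 7.30. G2 and G7 were the 2 highest fish there, at 99.9% and 99.7%, and without them the difference was 2.82 points. The other 4 averaged below 1% in both tissues. At positions 22538797 and 22538771 of chr7A the testes averaged 0.192% and 0.142%, against 0.655% and 0.498% in ovaries. Single ovaries weighed on these means: without ovary G11, at 2.92%, the first difference was −0.181 points, against −0.463 with all fish. Without ovary G13, at 1.77%, the second was −0.198 points, against −0.357 with all fish. At positions 54352624 and 54352501 of chr3B the testes averaged 0.255% and 0.278%, against 0.0599% and 0.560% in ovaries. Without testis G3, at 0.962%, the first difference was 0.107 points, against 0.196 with all fish. Without ovary G12, at 1.65%, the second was −0.147 points, against −0.283 with all fish. The adjusted p by the exact permutation test was 0.642 for all 5.

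Within an amplicon whose CpGs differed widely in level, the profile of means along the amplicon was alike in the tissues. Mean levels at the 8 CpGs of chr25 ran from 16.9% to 72.5% in testes and from 18.0% to 75.4% in ovaries, with the same lowest and highest CpG, and Pearson's r between the tissues over these CpGs was 0.999. At chr5C the 24 CpGs ran from 5.25% to 62.3% in testes and from 7.29% to 69.9% in ovaries, with r = 0.990. At chr16 the 19 CpGs ran from 30.6% to 93.0% in testes and from 29.7% to 94.5% in ovaries, with r = 0.982. These correlations are across CpGs of 1 amplicon, which share reads, libraries and fish, and describe the profile only. All 9 CpGs of chr7B were lower in testes, and all 6 of chr3A and all 6 of chr22 were higher.

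**Figure D3:**
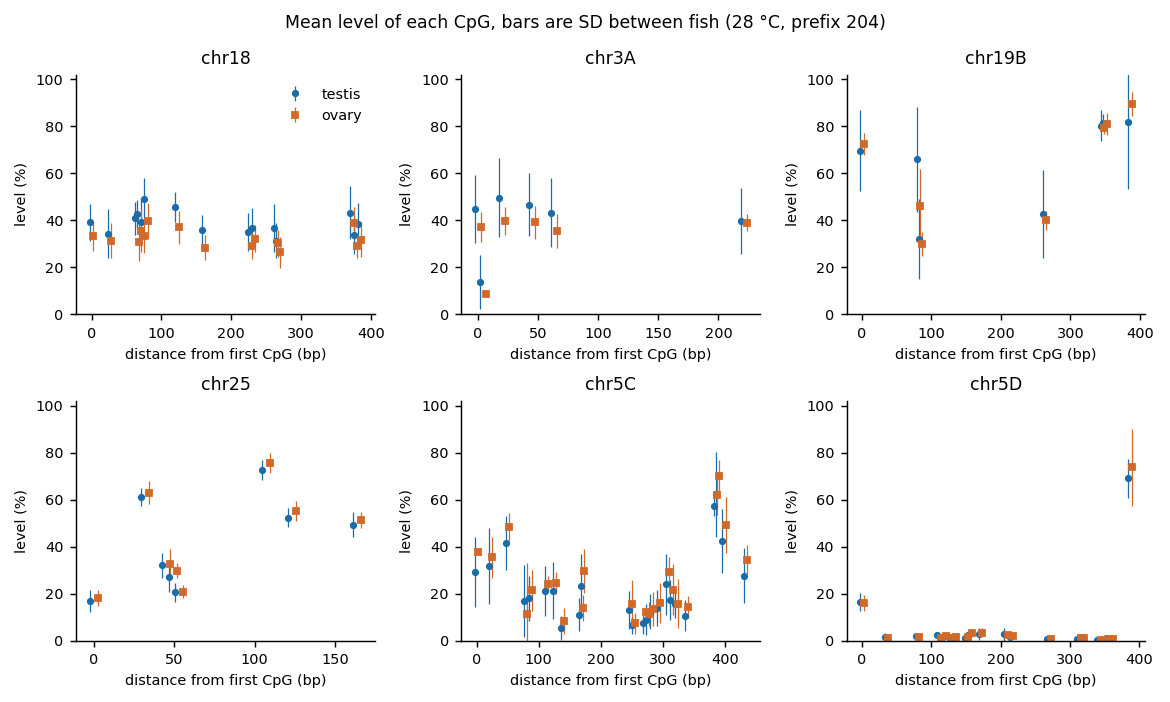
Mean methylation level (%, vertical axis) of each CpG against its distance from the first CpG of its amplicon (bp, horizontal axis) in 6 amplicons; circles are testes and squares ovaries, moved slightly apart sideways, and bars are the SD between fish, ending at the edge of the plot. The profile along the amplicon is alike in the tissues, as at chr25, and a single CpG of chr5D stands at 69.1% in testes and 73.8% in ovaries.

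Spread between fish was larger in testes at most amplicons, though not past the test at any. The SD was larger in testes at 16 of 18 amplicons, with a median ratio of 1.55 (testis over ovary). An exact two-sided permutation test of the absolute deviations from the group median passed at 0 of 18 (0%) after adjustment and gave an unadjusted p below 0.05 at 0. The smallest p was 0.0907 (adjusted p = 0.449, exact permutation test) at chr19B. The SD there was 4.49 points in testes, or 4.10 without G2 and G7, and 2.53 in ovaries. The largest ratios were 8.99 at chr7A, 8.12 at chr15 and 4.42 at chr1, the amplicons at which G2 or G7 lay far above the rest. The smallest were 0.578 at chr3B, 0.899 at chr5D and 1.05 at chr5B. Without G2 and G7 the SD was larger in testes at 10 of 18 amplicons, with a median ratio of 1.16. These testes were left out after their levels were seen, and no ovary was left out, which by itself tends to lower the ratio. Over single CpGs, the SD was larger in testes at 191 of 294.

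Among the 7 intermediate amplicons tested, the widest spread in testes was at chr3A (SD 11.6 points, or 6.19 without G2 and G7, against 4.67 in ovaries) and the narrowest at chr25 (SD 3.32 points, against 1.96 in ovaries). High amplicons varied by 1.86 to 2.45 points in testes and by 1.14 to 1.52 points in ovaries. Without G2 and G7 the testis SD was 1.04 points at chr8, 1.33 at chr14 and 1.98 at chr20. The ovary SDs at these amplicons were 1.15, 1.14 and 1.52 points, so at chr8 the order turned. Testis G2 was the highest testis at 5 of the 17 amplicons where it had a level, and ovary G16 was the highest ovary at 8 of its 17. Whether a fish that was high at 1 intermediate amplicon was high at the others was tested within each tissue in 16 relations. After adjustment 0 passed for Pearson's r or Spearman's rho (permutation tests), with 3 and 2 at an unadjusted p below 0.05.

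**Figure D4:**
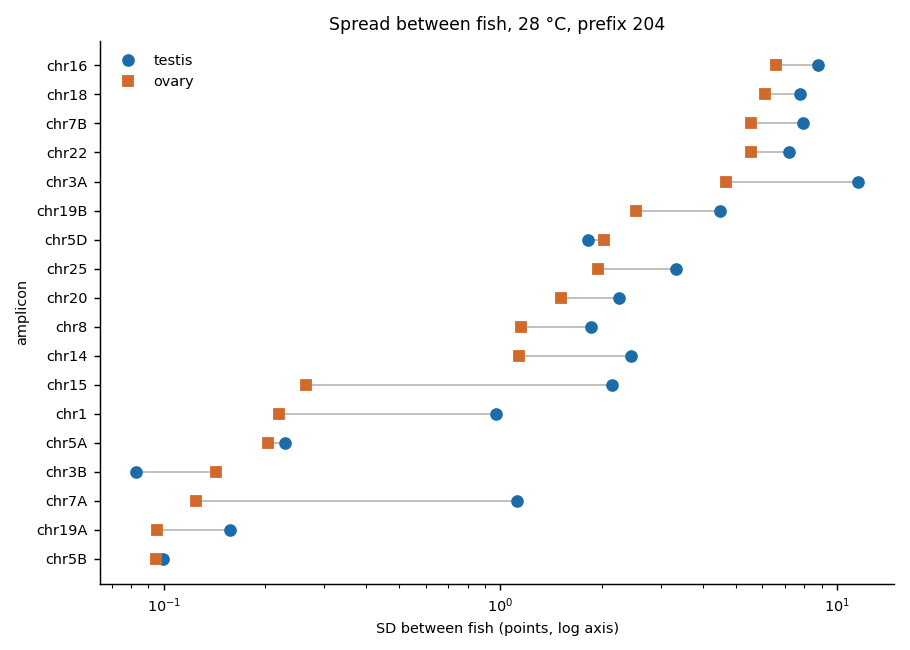
Standard deviation between fish of the methylation level (percentage points, log axis) at each of the 18 amplicons tested, with circles for testes and squares for ovaries. The SD is larger in testes at 16 of 18 amplicons, by the most at chr7A and chr15, where testis G7 lies far above the other fish.

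CpGs of testes G2 and G7 were counted by level, which was not done for the other fish. In G7, 19 of the 26 CpGs of chr15 lay between 9% and 11% and the other 7 lay below 1%, and at chr7A a single CpG reached 42.3% while 28 of 31 lay below 1%. At chr5C, 18 of 24 CpGs of G7 lay below 1% and 1 reached 68.6%. All 7 CpGs of chr19B in G7 lay outside the range of the other 18 fish. At position 27435361, for example, G7 stood at 1.22%, against 77.1% to 95.8% in those fish. Of the 10 CpGs of chr14, 6 lay above 99% in G2 and 5 in G7. The part that the uneven calls over amplicons play in these levels was not tested.

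Taken over all amplicons, a panel value was formed for each fish as the mean of its levels after the mean of each amplicon over all 73 fish was subtracted. Panel values ran from −9.04 to −2.17 points in testes (median −6.35, n = 10) and from −9.56 to −4.42 in ovaries (median −7.20, n = 9). G2 and G7 were the 2 highest fish, and the groups overlapped. A panel value averages only the amplicons with a level in that fish, and G7 had none at chr7B and chr18, and G2 none at chr18. At chr7B, testes averaged 20.1% and ovaries 23.6%, against 51.5% over the 73 fish. At chr18 they averaged 38.7% and 32.4%, against 59.9%. Lacking such low terms can raise a panel value, and its part in the rank of G2 and G7 was not tested. Testes averaged −6.24 ± 2.45 and ovaries −7.15 ± 1.70 (SD), a difference of 0.910 points (SE 0.960) with an interval from −1.16 to 2.99 (exact permutation p = 0.364). This value depended on settings: with a minimum of 30 reads it was 1.56 points (exact permutation p = 0.0227), and without G2 and G7 it was −0.0146 points (exact permutation p = 0.985). No relation of panel values to depth passed a test, with r = 0.144 and rho = 0.114 against log10 of the calls (n = 19, permutation p = 0.557 and 0.641, adjusted p = 0.745 and 0.810). Within testes r was 0.136 and within ovaries 0.131, and without the 2 fish farthest from the median depth it was 0.119 over both tissues.

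The difference between the tissues was smaller with prefix 204 than with prefix 128 at the same temperature. With prefix 128, testes and ovaries differed at 12 of 20 amplicons (60%, exact permutation test, adjusted p below 0.05), and 10 of these 12 were tested with prefix 204. At all 10, the prefix 128 difference lay outside the interval of prefix 204. The difference between the tissue differences was itself tested by permuting residuals under an additive model of tissue and prefix. It passed at 9 of 18 amplicons (50%), and at each of the 9 testis minus ovary was smaller with prefix 204. Prefix 204 minus prefix 128, in this measure, was −63.7 points at chr7B, −50.3 at chr18, −35.1 at chr3A, −25.7 at chr25, −18.5 at chr16, −15.7 at chr19B, −10.1 at chr20, −6.50 at chr8 and −3.93 at chr14. The adjusted p of this permutation test ran from 0.00012 at chr7B, chr8 and chr20 to 0.0066 at chr14. At chr22 the measure was −39.0 points and did not pass, with an adjusted p of 0.0746 by the same test.

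At chr18, prefix 204 testes had 38.7% ± 7.75 (n = 8) and prefix 128 testes 87.1% ± 20.5 (SD, n = 13), while prefix 204 ovaries had 32.4% ± 6.13 (n = 9) and prefix 128 ovaries 30.5% ± 12.1 (SD, n = 8). Of the 13 prefix 128 testes, 11 lay between 92.6% and 96.6% and 2 lay at 40.4% and 41.4%, within the range of the prefix 204 testes. At chr7B, prefix 204 testes averaged 20.1% ± 7.94 (n = 9) and prefix 128 testes 84.5% ± 17.2 (SD, n = 12). Prefix 204 ovaries averaged 23.6% ± 5.56 (n = 9) and prefix 128 ovaries 24.3% ± 13.6 (SD, n = 5). At chr3A, prefix 204 testes averaged 39.5% and prefix 128 testes 72.8%, while prefix 204 ovaries averaged 33.2% and prefix 128 ovaries 31.4%. At these 3 amplicons the testis means lay further apart between the prefixes than the ovary means. What a prefix stands for is not given by the labels, so the prefix and whatever goes with it cannot be told apart.

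**Figure D5:**
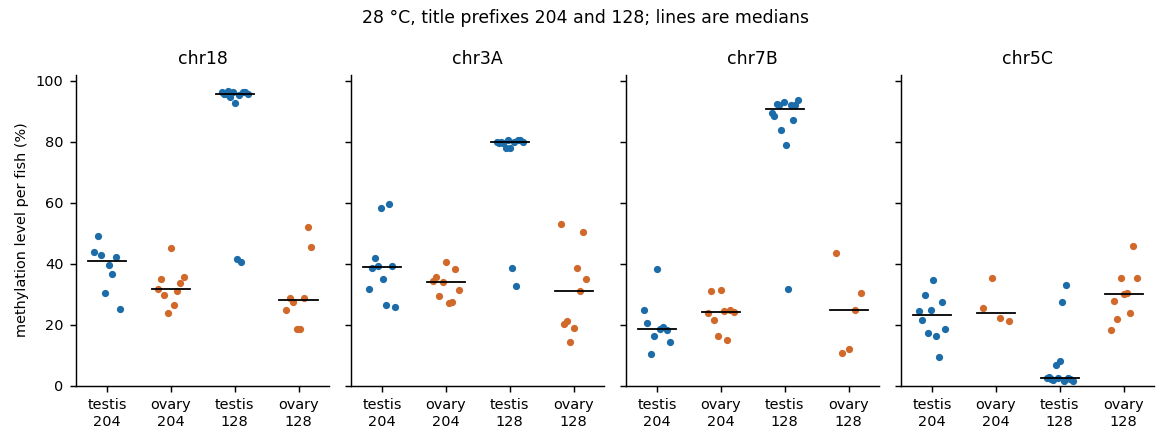
Methylation level per fish (%, vertical axis) at 4 amplicons at 28 °C for testes and ovaries with prefix 204 and then with prefix 128; dots are fish and lines medians. Most testes with prefix 204 lie among the ovaries. Of these testes, G2 and G7 lie above every ovary at chr3A. G15 lies just below every ovary at chr7B, and G5, G7 and G17 lie below every ovary at chr5C. Most testes with prefix 128 lie far above the ovaries at chr18, chr3A and chr7B, and below them at chr5C.

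Over the panel, testis minus ovary was 0.910 points with prefix 204 and 13.3 points with prefix 128 (exact permutation p = 2.41e-05 for prefix 128, 13 testes and 9 ovaries). The difference between them was −12.4 points (SE 1.99, permutation p = 1e-05, the smallest that 100000 resamples can give). With prefix 204 at 36 °C, where no fish is shared with the fish at 28 °C, testis minus ovary was 11.3 points (exact permutation p = 0.000341, 8 testes and 12 ovaries). Between the temperatures within prefix 204, the tissue difference at 28 °C minus that at 36 °C was −10.4 points (SE 2.88, permutation p = 0.0003). At chr18, testes with prefix 204 averaged 38.7% ± 7.75 at 28 °C (n = 8) and 81.2% ± 24.4 at 36 °C (SD, n = 8), and ovaries 32.4% ± 6.13 at 28 °C (n = 9) and 32.1% ± 7.39 at 36 °C (SD, n = 11). A similar order of means held at chr7B. Testes there averaged 20.1% ± 7.94 at 28 °C (n = 9) and 69.7% ± 31.8 at 36 °C (SD, n = 8). Ovaries averaged 23.6% ± 5.56 at 28 °C (n = 9) and 25.4% ± 3.30 at 36 °C (SD, n = 11).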

How the data were processed

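Genomic DNA of whole gonads was converted with bisulfite and amplified in multiplex, and Illumina HiSeq reads were made, per the labels' protocols. For every fish, the authors deposited a table with counts of methylated and unmethylated reads per CpG; these counts are whole numbers and not normalized. The submitters' processing notes name Bismark 16.0, Bowtie2, FastQC 0.11.6 and Trim Galore 0.4.5, with build GRCz10. Any duplicate removal is not given in the sources used here, nor are primers. Amplicon reads without molecular identifiers are not independent molecules, so no counting interval is given and the fish is the replicate.

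A CpG level is 100 times methylated over all reads, at 10 reads or more. CpGs with a level in at least 50% of all 73 fish (324 of 25217) were kept and joined across gaps of up to 200 bp into amplicons of at least 2 CpGs. An amplicon level averages its CpG levels, if at least 50% have one. Groups came from tissue, treatment and title prefix. Levels were compared with exact two-sided permutation tests over all 92378 splits of 10 against 9 fish (fewer where levels were missing), with Benjamini-Hochberg adjustment at 0.05 and at least 5 fish per tissue; interactions used 100000 resamples of residuals. Python 3.11.15, numpy 2.4.6, scipy 1.17.1, R 4.3.3 and limma 3.58.1 were used, and the tests were tested on simulated data. The intervals were tried there only on normal data with equal SD in both groups. No 2 of the 19 libraries held identical counts (0 of 171 pairs). Whether replicates came from separate crosses is not stated, so p-values reflect variation among these fish, which may be partly technical.

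All amplicons are named. Named CpGs are the 5 with the smallest p and the 3 with the largest difference; for spread, the 3 largest and 3 smallest SD ratios are named. Values of fish with prefix 128 or kept at 36 °C served for comparison. Those fish also entered the choice of CpGs, the classes of level and the amplicon means subtracted in panel values. The libraries, tests and lists were chosen with earlier results of these data known. Alternatives were the read minimum, the coverage rule, gap, pooled counts, other tests and leaving out fish; leaving out testes G2 and G7 together, and centring panel values on the 19 fish, were chosen after seeing the data.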

Additional observations from a re-analysis of the deposited data

Results flagged for a closer look

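Some fish lay far from the others of their tissue, by the gap to the nearest fish relative to the range of the group. Of 44 groups of 4 to 10 fish tested, 6 were flagged, and chance flags about 1 in 20. In testes these were G2 at chr1 (3.78%) and at chr14 (98.1%), and G7 at chr15 (7.56%) and at chr7A (3.94%), so all 4 flags in testes fell on these 2 fish. In ovaries they were G20 at chr15 (1.62%) and G13 at chr16 (77.1%).

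The tissue difference (testis minus ovary) differed between prefix 204 and prefix 128 by a residual permutation test. Prefix 204 minus prefix 128 was −63.7 points at chr7B, −50.3 at chr18, −35.1 at chr3A, −25.7 at chr25, −18.5 at chr16, −15.7 at chr19B, −10.1 at chr20, −6.5 at chr8 and −3.93 at chr14. Over the panel it was −12.4 points, and between 28 °C and 36 °C within prefix 204 it was −10.4 points.

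Reads outside the 20 amplicons, which no comparison used, also held methylated calls: 62.9% of 92888 calls in testes and 47.4% of 244987 calls in ovaries. These are sums over fish, and by fish the share ran from 13.8% to 80.3% in testes and from 16.3% to 79.3% in ovaries, so the tissues overlapped.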

How the results depend on the processing

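Counts past the threshold stayed at 0 for amplicons, in level and in spread, and at 0 for CpGs in level. This held in every alternative in which each was run, including each of the 19 fish left out in turn. Spread was not tested for CpGs, and CpGs were not tested again with the changed gap or pooled counts. The count of amplicons whose interval excluded 10 points ran from 13 to 15. The panel difference changed its side of the threshold. It was 1.56 points with a minimum of 30 reads (exact permutation p = 0.0227), 1.43 with 100 reads (exact permutation p = 0.0228) and 1.40 with CpGs covered in 80% of fish (exact permutation p = 0.0401), and −0.0146 without testes G2 and G7 (exact permutation p = 0.985). With 30 reads it was 0.802 when centred on the 19 fish (exact permutation p = 0.128) and 0.876 without G2 and G7 (exact permutation p = 0.0798). Centred on the 19 fish alone it was 0.629 (exact permutation p = 0.395). Leaving out 1 fish gave 0.457 to 1.25 points. The cause was not tested. Several amplicon differences moved in size across settings other than single left-out fish, with no adjusted p past the threshold: chr3A from 1.54 to 7.02 points, chr22 from 1.997 to 8.36, chr20 from 0.0361 to 1.30, chr16 from 1.29 to 3.82 and chr5D from −1.27 to −0.0486. The same held at chr18, from 5.81 to 8.25 points, and at chr19B, from 1.96 to 3.52. Without G2 and G7 the difference was −0.174 points at chr15 and −0.00133 at chr7A. Leaving out 1 fish turned the sign at chr5B (range −0.00474 to 0.0334), chr15 (−0.145 to 0.663) and chr19A (−0.00626 to 0.0698). Of 240 single values under other settings 238 kept their direction and side of the threshold, as did 490 of 494 with 1 fish left out. Against the number of CpGs with a level in place of depth, the panel correlation was −0.524 (permutation p = 0.0183, adjusted p = 0.055, n = 19), and −0.228 without the 2 fish farthest from the median, so it rests on those fish.

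The 9 amplicons whose tissue difference differed from prefix 128 were called in every alternative in which they were tested, under changed read minimums, pooled counts and left-out fish. The count ran from 8 to 12. Among the amplicons called only in some alternatives was chr22, with a minimum of 5 reads (adjusted p = 0.012, residual permutation test) or without prefix 128 testis G11 or G13. chr7B could not be tested when any of the 5 prefix 128 ovaries with a level there was left out. With limma's interaction term the count was 9. The panel contrast with prefix 128 ran from −13.3 to −9.47 points, and that with 36 °C from −12.2 to −8.39. No paired analysis was possible because the testes and ovaries share no fish number. Depth limits chr22 and chrUn most.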

Other observations

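A few CpGs varied between fish far more than their amplicons, and they were picked out with their values in view. The widest was position 54645721 of chr16, with an SD of 28.4 points over the 18 fish with a level. Its levels ran from 0.154% to 81.1% in testes (median 30.7%, n = 10) and from 0.163% to 86.7% in ovaries (median 26.6%, n = 8). It lay below 5% in 2 testes and 1 ovary, and above 50% in 3 testes and 1 ovary, so fish of both tissues reached both ends.

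Position 27435056 of chr19B fell into separate ranges over the 18 fish other than testis G7. In the upper range, from 63.9% to 82.1%, lay 6 testes and 2 ovaries. In the lower range, from 24.6% to 46.2%, lay 3 testes and 7 ovaries, and no fish lay between. Testis G7 stood at 100%. The next CpG of the amplicon with a level, 27435059, ran from 4.02% to 48.1% over the same 18 fish.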
